A study of Homo sapiens with 7 samples.

Results

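The 4 histone H1 libraries of a 7-sample CUT&Tag series were chosen by their labels, 2 from wild-type and 2 from NuMA-depleted cells, and each is described here by itself. In CUT&Tag an antibody brings the transposase Tn5 to a chromatin protein, and DNA close to that protein is cut and tagged. All samples were HCT116, an established human colon cancer line, with 10000 cells per assay. The sample titles carry the tag NC for wild type and AID for depletion. The means and time of depletion, and whether the depleted cells were 1 clone, were not given in the sources used here. Peak lists do not measure the extent of depletion, and clone or treatment cannot be told apart from it. It is not stated that replicates were separate cultures, so the p-values below measure the spread between these libraries alone, and that spread may be technical. The other samples were a NuMA C-terminal and an N-terminal library, used here only for contrast, and an immunoglobulin G library not analysed here.

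Histone H1 is the linker histone. It sits where DNA enters and leaves the nucleosome, binds the linker DNA and helps neighbouring nucleosomes to pack. H1 is spread over most of the genome, so its peaks are places where the signal stood out from its surroundings and not all places where it is bound. NuMA is a large coiled-coil protein of the nuclear interior that gathers at the spindle poles in mitosis.

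The lists held 4557, 5559, 2619 and 1485 rows, in the order wild-type replicates 1 and 2, then NuMA-depleted replicates 1 and 2, which all series of 4 values below keep. Of these, 5, 6, 3 and 5 rows lay on the mitochondrial genome, and the others, on chromosomes 1 to 22, X and Y, are the peaks analysed. Relative depth, recovered from the deposited values, was 100%, 99.9%, 58.6% and 58.5% of that of wild-type replicate 1. The median peak had 19, 18, 16 and 14 fragments at its summit. Both depleted libraries were therefore shallower and had shorter lists, and between the groups of full lists depletion, depth and list length cannot be told apart. Within each group the 2 lists differed in length at nearly equal relative depth. Most measures are also given for equal lists, and values with no kind of list named are of the full lists. Equal lists were cut to the number of peaks in the shortest list, that of depleted replicate 2. The cut was by highest −log10 p, the caller's measure of confidence in a peak. It kept 32.5%, 26.7%, 56.6% and 100% of the rows. The weakest row kept had a −log10 p of 15.1, 15.5, 11.3 and 6.51, so equal lists were still unequal in strength. In both wild-type lists the first row left out had the same −log10 p as the last row kept, and in depleted replicate 1 both were 11.3.

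At the edges of the centromeres the H1 peaks were nearly as many after depletion as before, while farther along the arms the depleted lists held far fewer. Centromeres are built on long satellite repeats, which the hg19 assembly leaves mostly as gaps with some satellite sequence at their borders. Within 0.5 Mb of a centromere gap the lists held 102, 112, 82 and 85 peaks. The mean of the depleted libraries was 0.78 times that of wild type there. In the 6 distance classes from 0.5 Mb outwards this ratio lay between 0.344, at 2 to 5 Mb, and 0.486, at 0.5 to 1 Mb. The difference between this class and the others was not tested, because peaks of one list are not replicates.

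As a share of the list, the 0.5 Mb edge held 2.24%, 2.02%, 3.13% and 5.74% of all peaks, on 0.794% of the genome. Both depleted libraries lay above both wild-type libraries in the full lists, with a difference of 2.31 percentage points (exact permutation p = 0.33, a window chosen after the data were seen). In equal lists the edge held 87, 90, 79 and 85 peaks, or 5.88%, 6.08%, 5.34% and 5.74%, and both depleted libraries then lay slightly below both of wild type. The enrichment over the genome was 7.41, 7.66, 6.72 and 7.24 times in the equal lists, against 2.82, 2.54, 3.95 and 7.24 times in the full ones. Its size in the full lists thus followed the length of the list.

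The share was also taken over a 5 Mb window. It held 8.26%, 7.28%, 8.52% and 10.9% of the peaks in the full lists, a difference of 1.93 percentage points, higher in 2 of 2 depleted libraries (exact two-sided permutation test, p = 0.33, the smallest that 2 against 2 libraries allow; 0.833 after Benjamini-Hochberg adjustment over 10 such tests). Without depleted replicate 2 the difference was 0.757 points. In the equal lists the window held 11.1%, 10.6%, 10.6% and 10.9%, a difference of −0.10 points (exact permutation p = 1). That sign turned with several settings, among them a cut by fold in place of −log10 p, which gave 7.23%, 6.42%, 7.30% and 10.9%.

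**Figure D1:**
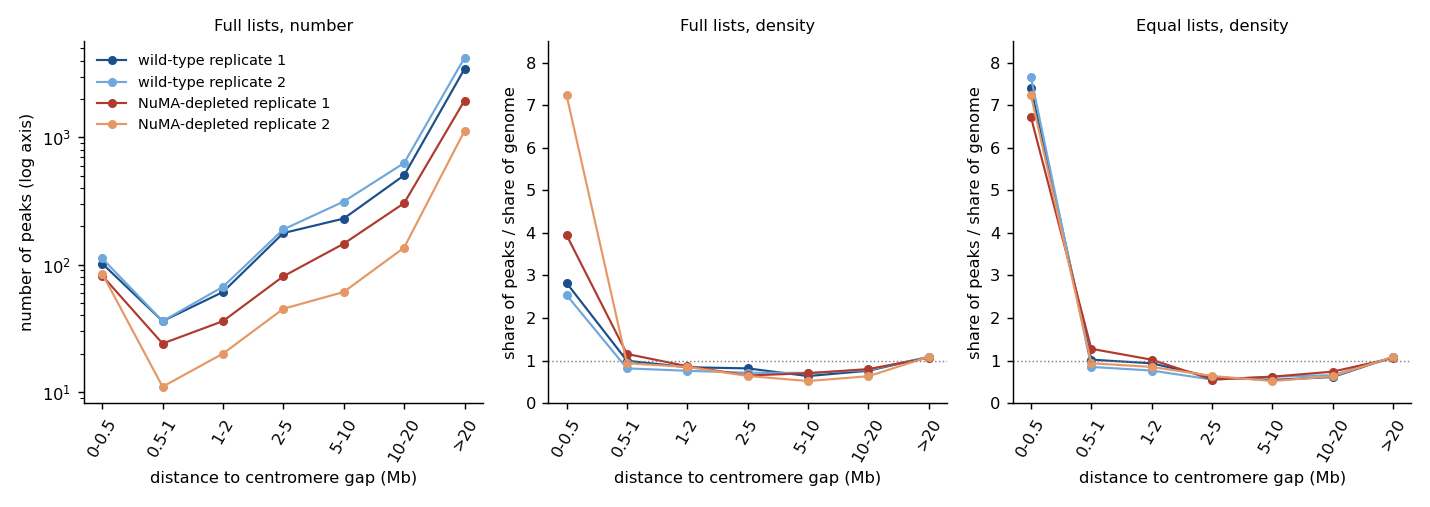
H1 peaks by distance to the nearest centromere gap in Mb, 1 line per library. The left panel gives the number of peaks on a log axis, the middle one the share of the full list over the share of the genome, and the right one the same for equal lists. The 4 lines meet at the edge in number (82 to 112 peaks) and spread farther out, and in the right panel they lie together at 6.72 to 7.66 at the edge.

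The H1 peaks at the centromere edges differed in form from the rest in every list. Their median width was 555, 543.5, 556.5 and 436 bp, against 397, 363, 410 and 305 bp for all other peaks. Fold is the caller's ratio of fragments to background at a summit, with a constant added to both. Their median fold was 5.17, 5.46, 5.30 and 5.71, against 6.40, 6.16, 6.57 and 7.02 elsewhere. They were thus wider and lower than other peaks of their own list, in wild-type and depleted libraries alike. The NuMA lists had 0.08% and 0.06% of their peaks in these windows in full, and 0.20% and 0.14% when cut to equal length. Both were far below the H1 share.

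Some single regions at the edges recurred in all 4 lists. The peak of highest −log10 p was the same in all 4 lists, at chromosome 1, 121484095 to 121485431 (coordinates of wild-type replicate 1, hg19), 50.3 kb from the centromere gap. Its fold was 11.9, 12, 11.2 and 13.4, above the median of the edge peaks of each list, and its −log10 p was 2406, 2089, 1714 and 1118. The widest peak was also shared by all 4 lists, on chromosome 6 at 58776278 to 58779519, 50.9 kb from the gap. It measured 3242, 3202, 3203 and 3207 bp, with a fold of 4.85, 4.71, 4.63 and 4.96. Of the 12 peaks of highest −log10 p, 8, 8, 7 and 7 lay within 1 Mb of a centromere gap, and 12, 12, 12 and 11 were overlapped by peaks in all 4 lists. The calls of highest −log10 p were therefore nearly all made in wild-type and depleted libraries alike. No control peak list was set beside them, so whether these calls depend on the H1 antibody was not tested.

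The highest fold in both wild-type lists and in depleted replicate 1 was at chromosome 9, 66970988 to 66971556, 16604 kb from the gap, with a fold of 24.9, 26.1, 22.8 and 27.8. The next, at chromosome 9, 69710750 to 69711304, had folds of 22.4, 25.6, 20.9 and 23.4. Depleted replicate 2 differed at one place. Its highest fold, 33.9 with a −log10 p of 524, belonged to a narrow peak of 246 bp on chromosome 17 at 22020663 to 22020908. No other H1 list had a peak there, and their nearest ones lay 114 kb away. This call rests on 1 library.

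The longest runs of H1 peaks, here peaks with gaps of at most 10 kb between neighbours, were found again at the same places in all 4 libraries. Runs of at least 4 peaks numbered 14, 13, 11 and 10 and held 91, 96, 62 and 61 peaks, while runs of at least 2 peaks numbered 111, 194, 50 and 41. Long runs thus differed less between the groups in number than short ones, and this was not tested. The longest run of both wild-type lists lay on 8q, with 14 peaks in replicate 1 (86739320 to 86804596) and 19 in replicate 2 (86726615 to 86840779). Over the latter span, 114 kb, the lists held 19, 19, 14 and 11 peaks, and the equal lists 14, 16, 14 and 11. In the full lists the median gap between neighbours there was 5.07, 5.10, 7.73 and 8.92 kb, wider in both depleted libraries. The 10 kb limit split the span in both depleted lists. It also split it in wild-type replicate 1, whose run held 14 of its 19 peaks. In equal lists depleted replicate 1 held as many peaks there as wild-type replicate 1.

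The longest run of depleted replicate 1 was at the centromere edge of chromosome 2, at 92290239 to 92325608, with 10 peaks. The region spanned by it in wild-type replicate 2 held 9, 11, 10 and 8 peaks. In depleted replicate 2 the longest run lay at the centromere edge of chromosome Y, at 13460788 to 13489440, with 12 peaks. The same region held 12, 14, 10 and 12. Counts there overlapped between the groups. Runs at chromosome 2, 133012266 to 133039105, and chromosome 11, 51569630 to 51591357, held 8, 7, 7 and 7 and 7, 7, 6 and 7 peaks, named here after their values were seen.

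Away from these runs, H1 peaks were far apart, and farther in the depleted lists. The median distance from a peak to the nearest other peak of its list, edge to edge, was 131, 107, 231 and 397 kb in the full lists, a mean difference of 1.35 on the log2 scale, and the groups did not overlap (exact permutation p = 0.33, adjusted 0.833). Peaks with no other within 1 Mb made up 4.33%, 2.88%, 13.2% and 27.4% of the full lists. In equal lists they made up 25.7%, 23.9%, 25.9% and 27.4%, so the groups were then close together. Divided by the mean gap that each list's length gives, the median distance in the full lists was 0.198, 0.197, 0.200 and 0.194. On that scale depleted replicate 1 lay above and depleted replicate 2 below both wild-type libraries.

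In equal lists the medians came to 321, 337, 355 and 397 kb. The mean difference was 0.19 on the log2 scale, higher in 2 of 2 depleted libraries (exact permutation p = 0.33, adjusted 0.833), against 1.35 in the full lists. Cut by fold instead, the medians were 414, 472, 430 and 397 kb and the difference turned to −0.10. The NuMA lists, for contrast, had medians of 4.25 and 3.48 kb in full, and 21.2 and 26.5 kb when cut to the same length as the equal lists.

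**Figure D2:**
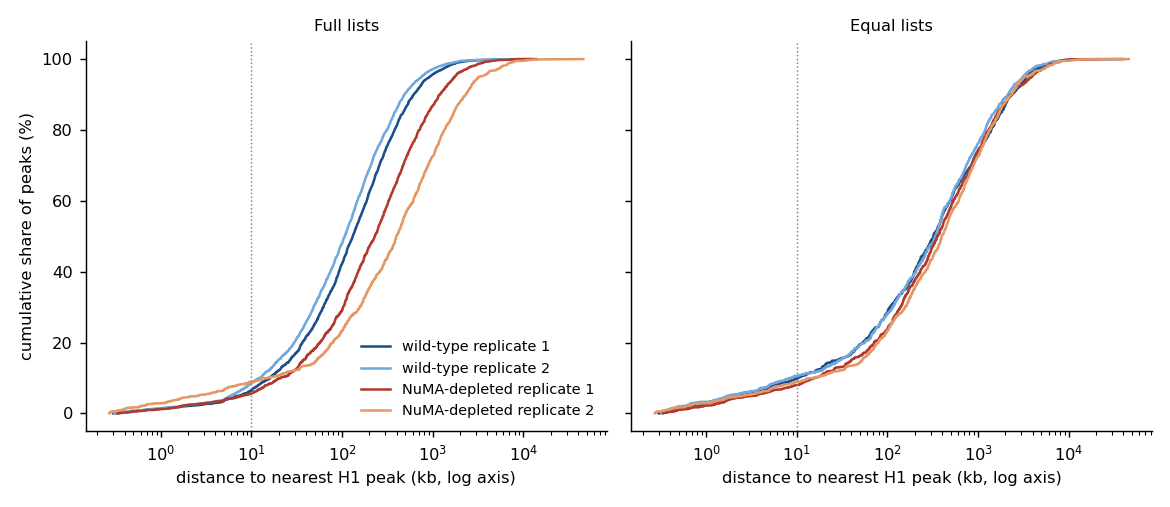
Cumulative share of peaks (%) against the distance to the nearest H1 peak in kb on a log axis, 1 line per library, for full and equal lists, with a dotted line at 10 kb. The full lists part beyond about 10 kb, with medians from 107 to 397 kb, and the equal lists lie close together, with medians from 321 to 397 kb.

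Close neighbours were the exception to wide spacing. Peaks with another H1 peak within 10 kb made up 6.52%, 8.61%, 5.66% and 8.92% of the full lists, or 297, 478, 148 and 132 peaks. The 95% Wilson intervals, which cover counting error only, were 5.84 to 7.28%, 7.90 to 9.37%, 4.84 to 6.61% and 7.57 to 10.5%. The groups overlapped (difference −0.28 percentage points, exact permutation p = 1), and the sign turned without wild-type replicate 2 (0.764 points) or without depleted replicate 1 (1.35 points). In equal lists the share was 9.86%, 10.6%, 7.97% and 8.92%. Both depleted libraries lay below both wild-type libraries, by 1.79 points on average (exact permutation p = 0.33, adjusted 0.833). With the lists cut by fold this difference turned to 3.51 points. Within 50 kb the share was 25.3%, 30.8%, 18.4% and 14.5% in full lists, a difference of −11.6 points, and 19.5%, 19.3%, 16.3% and 14.5% in equal lists, a difference of −3.99 points, with the groups apart in both (exact permutation p = 0.33).

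Centromere edges carried much of this closeness. Of the peaks with a neighbour within 10 kb, 26.6%, 17.99%, 41.9% and 52.3% lay within 0.5 Mb of a centromere gap in the full lists, and 50%, 49.04%, 52.5% and 52.3% in equal lists. With edge peaks left out, the share with such a neighbour was 4.90%, 7.20%, 3.39% and 4.52% in the full lists and 5.24%, 5.76%, 3.997% and 4.52% in equal lists, lower in both depleted libraries in each. Close peaks were wider than the others of their list, with medians of 489, 417, 537.5 and 455.5 bp against 396, 361, 409 and 303 bp, and had a lower median fold, 5.29, 5.14, 4.94 and 5.08 against 6.44, 6.21, 6.62 and 7.09.

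Peak width did not separate the groups. The median width in the full lists was 399, 365, 413 and 308.5 bp, with quartiles of 337 and 494, 310 and 459, 361 and 496, and 268 and 381 bp. Depleted replicate 1 had the widest median and depleted replicate 2 the narrowest. The group difference was −0.10 on the log2 scale (exact permutation p = 1), and 0.11 without depleted replicate 2. In equal lists the medians were 446, 415, 437 and 308.5 bp, a difference of −0.23 (exact permutation p = 0.667, adjusted 1), and 0.02 without depleted replicate 2. Width is bounded from below in each list, whose shortest peak measured 291, 273, 321 and 237 bp. Relative to that peak the median was 1.37, 1.34, 1.29 and 1.30 in the full lists and 1.53, 1.52, 1.36 and 1.30 in equal lists, smaller in both depleted libraries (exact permutation p = 0.33 in each, a measure added after the data were seen).

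Many of the widest peaks lay at the centromeres. Peaks of at least 1000 bp numbered 59, 69, 43 and 29, and 24, 22, 20 and 14 of them lay within 0.5 Mb of a centromere gap. H1 calls were short beside those of NuMA, whose median widths were 713.5 and 789 bp in full lists and 1099 and 1432.5 bp in lists cut to equal length.

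Folds are each list's own, and no change of signal is read from folds of different lists. The lower quartile, median and upper quartile were 5.43, 6.38 and 7.45 in wild-type replicate 1 and 5.26, 6.15 and 7.26 in replicate 2. They were 5.71, 6.56 and 7.61 in depleted replicate 1 and 6.01, 6.99 and 8.12 in replicate 2. The shorter the list, the higher was its median. In equal lists the order was different, with medians of 7.94, 8.04, 7.44 and 6.99. Peaks of at least 10-fold numbered 129, 123, 99 and 109, or 2.83%, 2.22%, 3.78% and 7.36% of the full lists, so their number differed less between libraries than the length of the lists. The 90th percentile over the median was 1.34, 1.38, 1.33 and 1.37 in full lists and 1.24, 1.22, 1.28 and 1.37 in equal lists. The maxima were 24.9, 26.1, 22.8 and 33.9, the last from the chromosome 17 peak of depleted replicate 2.

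**Figure D3:**
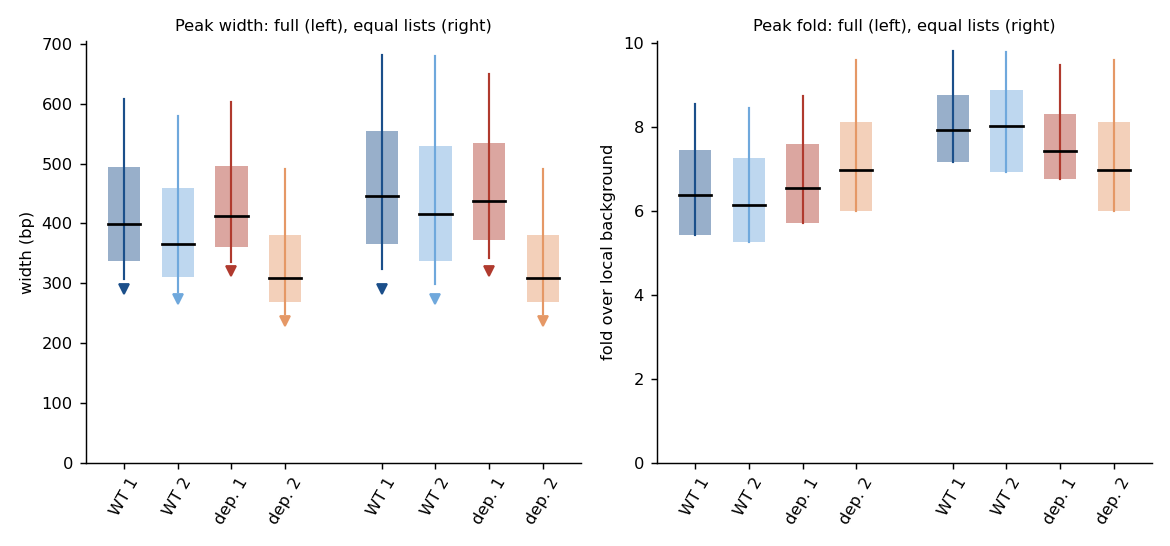
Width in bp (left panel) and fold over local background (right panel) of H1 peaks, per library, for the full and then the equal lists, with WT for wild type and dep. for NuMA-depleted. Boxes span the quartiles, the black line is the median, whiskers reach the 90th percentile and, in the width panel, down to the 10th, and triangles mark the shortest peak of each list. Depleted replicate 2 has the narrowest peaks, with a median of 308.5 bp, and the medians of fold stand in another order in the equal lists than in the full ones.

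In the windows within 10 Mb of a chromosome end, taken whole, the groups overlapped in full lists and in lists cut by −log10 p. The windows within 10 Mb of an end held 18.2%, 21.3%, 19.04% and 19.3% of the full lists (difference −0.58 percentage points, exact permutation p = 1) and 15.8%, 21.1%, 18.9% and 19.3% of equal lists (0.68 points, p = 1). Wild-type replicates 1 and 2 were the lowest and the highest library in each. Without wild-type replicate 2 the full-list difference was 0.991 points, and without wild-type replicate 1 that of equal lists was −1.96 points. Cut by fold, equal lists held 12.6%, 16.3%, 17.2% and 19.3%, a difference of 3.85 points with the groups apart (exact permutation p = 0.33). Split into narrower classes, the full lists had groups apart at 0 to 0.5 Mb, with higher depleted shares. Groups were also apart there at 1 to 2 Mb and 5 to 10 Mb, with lower depleted shares. In equal lists cut by −log10 p they were apart at 2 to 5 Mb alone, with higher depleted shares. In the outermost 0.5 Mb the full lists held 85, 120, 61 and 37 peaks, an enrichment of 2.35, 2.72, 2.94 and 3.15 times over the genome. The equal lists had 3.57, 4.001, 3.75 and 3.15 times. H1 peaks were thus denser than average at both ends of the arms, and less so at the telomeric side than at the centromeric side in the equal lists.

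In bins of 5 Mb along the chromosomes, no bin passed a test of its share of the list between the groups. Limma, run on the log2 share of each list with Benjamini-Hochberg adjustment, tested 485 of 633 bins in the full lists and 236 in equal lists and called 0 in each. The smallest adjusted p was 0.597 and 0.536. At an unadjusted p under 0.05 there were 32 bins (23 higher and 9 lower after depletion) and 19 bins, and with limma's voom weights 0 were called and 42 and 10 had such a p. The median of the log2 differences over the 485 bins was 0.10 with the pseudocount of 0.5 and 0.19 with a pseudocount of 1, and single differences are to be read against it. Without depleted replicate 1, which leaves depleted replicate 2 alone and takes its spread to be that of wild type, 92 bins of the full lists were called, and without depleted replicate 2, 3 were. In equal lists 0 were called with each library left out in turn.

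In 212 of the 485 bins (43.7%) of the full lists both depleted shares lay on 1 side of both wild-type shares, with 99 higher (20.4%) and 113 lower (23.3%). In equal lists this held for 59 of 236 bins (25.0%), with 28 higher (11.9%) and 31 lower (13.1%). Of the 236 bins tested in both, 14 were higher in both lists, 11 were lower in both and 8 changed sides. Of 24 tested bins that touch a centromere gap, 11 were higher and 5 lower in the full lists, and of 13 in equal lists 0 were higher and 2 lower. The excess of higher bins at centromeres in the full lists was therefore not present in equal lists.

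**Figure D4:**
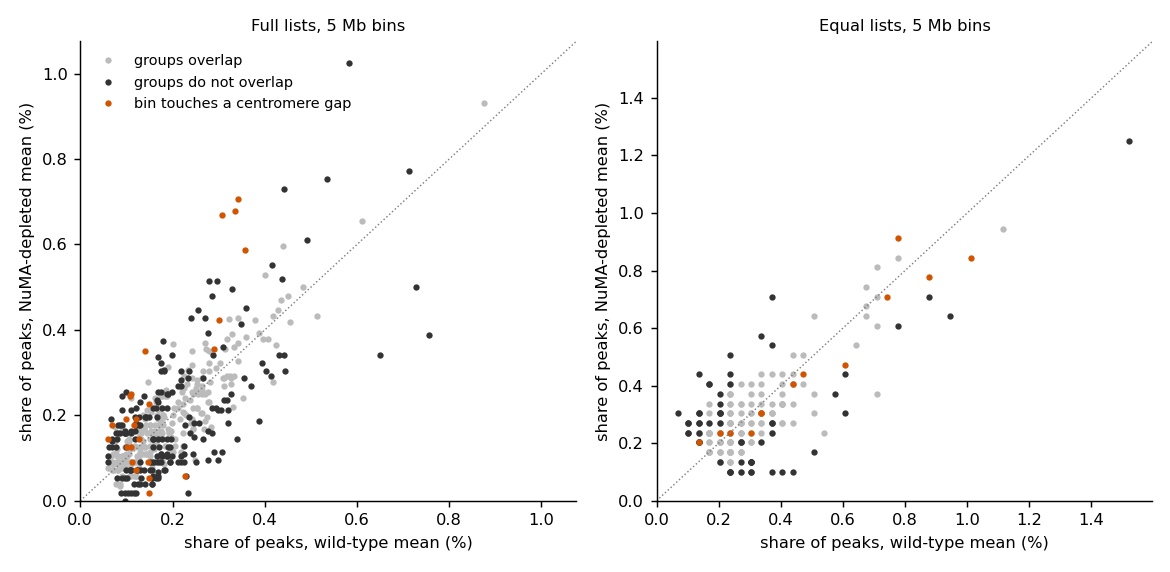
Each point is a tested 5 Mb bin, with its mean share (%) of the wild-type lists on the x axis and of the depleted lists on the y axis, for full and equal lists. Dark points are bins whose groups do not overlap, orange points touch a centromere gap whether or not their groups overlap, and the dotted line marks equal shares. Several orange points lie well above the line in the full lists and near it in the equal lists.

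The 5 bins whose mean depleted share lay farthest below the wild-type mean, among those whose groups did not overlap in the full lists and whose means differed the same way in equal lists, included 3 on 17q. The bin at 17q 70000001 to 75000000 held 32, 45, 15 and 3 peaks, 0.703%, 0.810%, 0.573% and 0.203% of the lists. Limma's log2 difference was −1.03 with a standard error of 0.41 (adjusted p = 0.597). In equal lists it held 8, 13, 8 and 3 peaks, and the groups touched.

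The bin at 17q 30000001 to 35000000 held 9, 15, 1 and 0 peaks, so nearly all its H1 calls came from wild type. Its log2 difference was −2.46 ± 0.59 (SE, adjusted p = 0.597), and in equal lists it held 3, 2, 0 and 0. The third bin, at 17q 45000001 to 50000000, held 31, 43, 12 and 8 peaks and, in equal lists, 10, 11, 10 and 8. The bin at 9q 95000001 to 100000000 held 14, 16, 5 and 0 peaks. The bin at 10q 115000001 to 120000000 held 18, 21, 8 and 1, and in equal lists 6, 6, 7 and 1. In all 5 bins depleted replicate 2 held the fewest peaks, and in equal lists only the thinnest of them, at 17q 30000001 to 35000000, still had groups apart, on too few peaks to be tested there.

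Of the 5 bins whose mean depleted share lay farthest above by the same rule, the first lay across the centromere of chromosome 10 at 40000001 to 45000000, with 18, 16, 14 and 13 peaks, or 0.395%, 0.288%, 0.535% and 0.878%. Its log2 difference was 1.03 ± 0.32 (SE, adjusted p = 0.597), and in equal lists it held 13, 10, 14 and 13. Its peaks were thus about as many in all 4 lists, although the lists differed in length. The bin at 2q 130000001 to 135000000, which holds the run at 133012266, had 23, 21, 17 and 12 peaks and 12, 11, 13 and 12 in equal lists.

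The other 3 were at 8q 140000001 to 145000000 (20, 35, 20 and 11 peaks), 8q 120000001 to 125000000 (13, 17, 11 and 9) and 2p 1 to 5000000 (12, 17, 11 and 8). In equal lists only the bin at 8q 120000001 to 125000000 kept its groups apart, with 6, 5, 7 and 9 peaks.

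The bins densest in H1 peaks were dense in all 4 libraries. At 14q 20000001 to 25000000 there were 42, 46, 24 and 14 peaks, 0.923%, 0.828%, 0.917% and 0.946% of the lists, and the groups overlapped. The bin at 8q 85000001 to 90000000, which holds the run described above, had 30, 28, 20 and 19 peaks. Its depleted share was higher in the full lists, by 0.443 percentage points, and lower in equal lists, by 0.27 points with 22, 23, 18 and 19 peaks. The direction at this bin therefore depended on the list. The bin at 10q 100000001 to 105000000 turned in the same way, with 32, 40, 21 and 11 peaks and 13, 13, 10 and 11 in equal lists. At 10q 120000001 to 125000000 the counts were 27, 35, 13 and 12, and 15, 13, 7 and 12 in equal lists, where both depleted libraries lay below both of wild type.

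The concentration of peaks in few bins depended on the length of the list, and its order turned in equal lists. The 10 fullest bins of each list held 6.44%, 6.68%, 6.88% and 8.65% of the peaks in full lists and 9.93%, 9.46%, 8.92% and 8.65% in equal lists. Bins with no peak numbered 63, 64, 82 and 155, and 158, 177, 148 and 155 in equal lists. The smallest number of bins that held 50% of the peaks of equal lists was 109, 106, 114 and 117. Both depleted libraries were thus spread slightly more evenly than both wild-type ones in equal lists, on all 3 measures, and this was not tested. Across the 633 bins, the shares of the 2 wild-type libraries had a Pearson correlation of 0.89 in full lists, the depleted pair 0.74 and the pairs across groups 0.67 to 0.84. In equal lists the wild-type pair had 0.80, the depleted pair 0.77 and the pairs across groups 0.76 to 0.78. These correlations are across bins, which share mappability and copy number and are not independent, and carry no test.

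Along whole arms, 17q was the one with the largest lower share in both kinds of list. It held 187, 248, 86 and 38 peaks, 4.11%, 4.47%, 3.29% and 2.57% of the full lists, a difference of −1.36 percentage points. In equal lists it held 58, 69, 47 and 38 peaks, 3.92%, 4.66%, 3.18% and 2.57%, a difference of −1.42 points, and the groups did not overlap in either. Such separation was common over arms, with 23 of 44 (52.3%) in the full lists, 11 higher (25.0%) and 12 lower (27.3%). It was seen in 16 of 43 (37.2%) in equal lists, 9 higher (20.9%) and 7 lower (16.3%), so separation alone is no result about 17q. The exact permutation p of each such arm is 0.33 before adjustment.

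The arm with the largest higher share was 8q in the full lists, with 5.32%, 5.37%, 6.19% and 7.16% (242, 298, 162 and 106 peaks). In equal lists 8q held 7.91%, 7.64%, 8.11% and 7.16%, and the groups overlapped. There 5q had the largest higher share, with 3.99%, 4.19%, 5.47% and 5.14%, a difference of 1.22 points, and 4.83%, 4.11%, 4.97% and 5.14% in the full lists. Local background at the peaks of an arm, recovered from the deposited values, was 1.30, 1.25, 1.35 and 1.29 times the list's median on 8q and 1.30, 1.50, 1.26 and 1.34 times on 17q. Both arms thus lay above the median background in wild-type and depleted libraries alike.

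Among arms named after their values were seen, 15q held 2.75%, 2.95%, 2.03% and 1.96% of the full lists and 2.64%, 2.16%, 1.55% and 1.96% of equal lists, lower in both depleted libraries in each. On 12q the shares were 2.88%, 2.88%, 3.06% and 3.04%, and 1.96%, 1.76%, 2.84% and 3.04% in equal lists, higher in both. On 10q they were close in the full lists, 4.57%, 4.47%, 4.47% and 4.39%, and apart in equal lists, 5.47%, 5.41%, 4.46% and 4.39%.

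**Figure D5:**
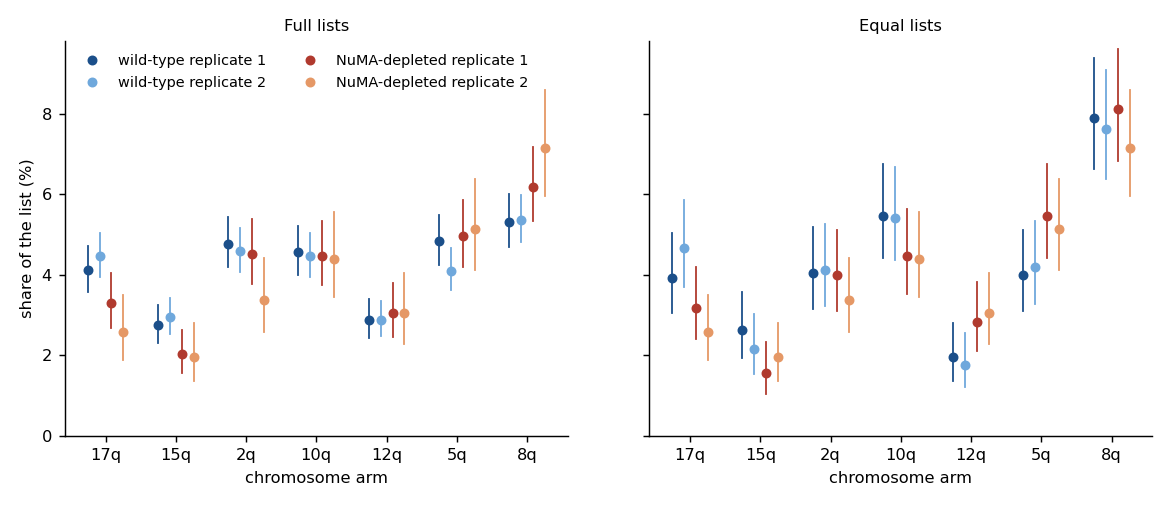
Share (%) of each list on 7 chromosome arms, for full and equal lists, 1 point per library with its 95% Wilson interval, which covers counting error only. On 17q both depleted libraries lie below both wild-type ones in both panels (2.57% and 3.29% against 4.11% and 4.47% in the full lists), while on 8q the groups part in the full lists alone.

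Bins were also ordered by their mean NuMA peak share in the C-terminal and N-terminal lists of wild-type cells. The quartile densest in NuMA, 158 bins, held 39.7%, 43.5%, 39.0% and 34.3% of the H1 peaks in full lists, lower in both depleted libraries. In equal lists it held 33.4%, 39.0%, 35.1% and 34.3%, and the groups overlapped. The quartile with the fewest NuMA peaks, 159 bins, held 9.82%, 8.91%, 9.75% and 12.03% in full lists and 13.1%, 11.7%, 11.6% and 12.03% in equal lists. In these outer quartiles the group means of equal lists differed by less than the wild-type replicates did. The quartile with the next fewest NuMA peaks, 158 bins, held 21.02%, 18.7%, 21.9% and 23.4% in full lists. It held 22.1%, 19.5%, 22.8% and 23.4% in equal lists. Both depleted libraries were thus higher there in each kind of list, and this was not tested. The remaining quartile held 31.4%, 29.9%, 30.4% and 30.3% in equal lists, and the groups overlapped.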

How the data were processed

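Per the submitters' processing notes, Trim Galore, Bowtie2, Picard and MACS2 were used with hg19; their roles and versions were not given in the sources used here. Per library, the authors deposited 1 peak list, with a q limit of 0.001 per the peak names. The deposited fold was read as a ratio, fragments at the summit plus 1 over local background plus 1. Median local background was 2.00, 1.97, 1.48 and 1.11 fragments, so the fold lies below the plain ratio. The deposited −log10 p and −log10 q are the caller's, and the deposited score, 10 times the −log10 q without decimals, was not used.

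Members and lists were chosen with earlier results of these data known. Rows on the mitochondrial genome were left out. Equal lists took as many rows of highest −log10 p as depleted replicate 2 had peaks. Fragments and background were recovered from fold and −log10 p, and 99.5 to 99.8% of peaks came out whole within 0.01. Group differences of medians are log2 ratios, those of shares percentage points. Python 3.11.15, scipy 1.17.1 (exact two-sided permutation tests, 10 adjusted together) and limma 3.58.1 in R 4.3.3 were used. Limma took log2 of peaks plus 0.5 over the list total, with trend, for bins with at least 10 peaks over the 4 lists. Tested on simulated data for this comparison (472 bins), it called 20 of 30 bins raised 4-fold, 6 of 27 lowered and 0 unchanged. The simulated replicates of a group differed by counting error alone, at the lengths of the full lists. Further spread between real replicates, and equal lists, were not covered. Centromere gaps and chromosome lengths of hg19 were entered by hand, and no peak lay inside a gap or past an end.

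Named regions were the 5 highest and 5 lowest bins by difference of mean shares (groups apart in full lists, same direction in equal lists), the 5 densest bins, each list's longest run, 2 highest folds and widest peak, and the arms of largest difference. Annotation, gene lists and sequences planned for hg19 were not used here, because the reference tables at hand are of another build, GRCh38.p14. Same-numbered replicates were checked for pairing. Their deviations from group means had a correlation of −0.12 over 485 bins in full lists and 0.02 over 236 in equal lists, and the numbers were not taken as pairs.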

Additional observations from a re-analysis of the deposited data

Results flagged for a closer look

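Peaks on the mitochondrial genome enter no comparison above. They numbered 5 in wild-type replicate 1, 6 in wild-type replicate 2 and 5 in depleted replicate 2, each above a set limit of 3 used for flagging. Depleted replicate 1 had 3, which is not above it. The limit is no test, and no difference between libraries is read from it. There is no peak list of a control library here to set beside them.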

How the results depend on the processing

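Of 170 alternative values, 137 kept their direction and their side of the threshold or, for counts, stayed within 1.5 times, 17 turned sign and 16 counts moved by more; the cause was not tested. No exact test could pass a threshold with 2 libraries against 2. Without single libraries, differences ranged for width from −0.31 to 0.11 (full lists) and −0.48 to 0.0226 (equal lists), for nearest distance from 0.96 to 1.74 and 0.11 to 0.27, for neighbours within 10 kb from −1.91 to 1.35 and −2.26 to −1.32 points, for chromosome ends from −2.14 to 0.991 and −1.96 to 3.31, and for centromeres from 0.757 to 3.11 and −0.34 to 0.14. Bins called by limma ranged from 0 to 92 and from 0 to 0, and bins with groups apart from 310 to 407 and from 117 to 133. A bin with groups apart among all 4 libraries stays apart when 1 is left out. The count of such bins could thus only rise from 212 and 59, and its rise is no result. The ranges were 63.9 to 83.9% and 49.6 to 56.4% of the tested bins. Some of the 16 counts that moved were of this kind. Cut by fold, equal lists gave −0.10 for nearest distance, 3.51 for neighbours, 2.26 for centromeres and 3.85 for ends. With −log10 q of at least 5, neighbours in full lists gave 0.970 and centromeres in equal lists 0.0798. For neighbours, a 5 kb window gave 1.44 in full and −1.08 in equal lists, and a 50 kb window −11.6 and −3.99. A 20 Mb window gave −0.24 for ends in equal lists. Centromeres in equal lists gave 0.27 without the top 1% by fold and 0.14 on chromosomes 1 to 22. Bins with groups apart numbered 128 of 292 with 10 Mb bins and 139 of 316 with at least 20 peaks in full lists. Their shares, 43.84% and 43.99%, were close to the 43.7% of the main setting. In equal lists they numbered 33 of 134 with 1000 rows and 15 of 79 with 1 Mb bins. They numbered 123 of 633 with no filter and 15 of 64 with at least 20 peaks. These shares were 24.63%, 18.99%, 19.43% and 23.44%, against 25% in the main setting. The counts thus moved largely with the number of bins tested. Limma called 3 of 134 bins with 1000 rows and 14 of 633 with no filter in equal lists.

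With the replicate block, limma called 0 bins in both kinds of list. Both pairs moved one way in 266 of 485 bins (54.8%) of full lists and 86 of 236 (36.4%) of equal lists. The exact sign-flip p was at least 0.5, the smallest that 2 pairs allow. The block changed no call. The crossed pairing, added after seeing the data, called 0 and 0. Annotation, gene lists and sequences were not run. The median summit had 16 and 14 fragments in the depleted libraries, against 19 and 18 in wild type. Whether depth set the length of the lists was not tested.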
